A study of Mus musculus with 10 samples.

Results

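The genes described here are Actb, Actg1, Acta2, Tpm1, Tpm4, Myh9, Myl9, Vcl, Flna and Srf. They were chosen by name as genes of the actin cytoskeleton or targets of the transcription factor SRF. Their rows were read from the deposited expression table by gene symbol. All 10 were found among its 55487 genes. Total RNA of intestinal epithelial cells (IECs) from the colon was sequenced in 5 WT and 5 RhoB-/- samples, all of the C57BL/6J strain. WT carries both copies of Rhob, the gene of a small GTPase that acts on the cytoskeleton, and RhoB-/- is the homozygous deletion, which every cell of the mouse carries and not the epithelium alone. No mouse in this comparison received any treatment or agent. The WT mice were males bought from a supplier and the RhoB-/- mice came from another center, no source used here says that the sequenced mice were littermates, and the labels give neither age nor sex. The paper gives a general age range, in weeks, for its mice where it states nothing else. The labels number the samples 1 to 5 within each genotype without saying whether each is 1 mouse, so p-values measure the spread between these samples.

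Actin monomers, mainly the beta and gamma cytoplasmic forms encoded by Actb and Actg1 in epithelium, assemble into filaments that tropomyosins coat, non-muscle myosin II contracts, filamin crosslinks and vinculin ties to cell junctions and adhesions. GTPases of this family signal through the ROCK kinases and the formins to build and contract these filaments. Assembly uses up free actin monomers, which releases the coactivators of the MRTF family, and these act with the transcription factor SRF on genes of the actin cytoskeleton, Srf itself among them. SRF binds a DNA element named the CArG box. In the colon, the filament network supports the brush border and the ring of actomyosin at the cell junctions.

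The CArG box was searched in the promoter windows of RefSeq on GRCm38.p6, which run from 250 bases before to 50 bases after a transcript start. The pattern, CC and GG around 6 bases that are each A or T, reads the same on both strands. A window was found for 9 of the 10 genes, all but Actb, and 4 of the 9 (44.4%) held the pattern, against 488 of the 27025 genes with a window (1.81%) and 147 of the 9457 such genes among those tested (1.55%). Because the 10 were chosen as actin cytoskeleton and SRF target genes, a share above that background follows from the choice. The matches are shown because SRF binds this element, and they lie upstream of the start in each case. Each sequence is written 5′ to 3′ along the strand of the gene, with the pattern in capitals.
Srf, chr17:46556205-46556254, minus strand, 82 and 62 bases before the start: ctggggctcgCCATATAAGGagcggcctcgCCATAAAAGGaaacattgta
Actg1, chr11:120348566-120348595, minus strand, 90 bases before the start: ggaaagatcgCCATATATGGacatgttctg
Vcl, chr14:20929161-20929190, plus strand, 227 bases before the start: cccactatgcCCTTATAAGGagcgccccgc
Myl9, chr2:156775293-156775322, plus strand, 161 bases before the start: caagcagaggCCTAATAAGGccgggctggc
The windows of Acta2, Flna, Myh9, Tpm1 and Tpm4 held no such letters. A match describes letters in a window and is not a measured binding site.

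The values are TPM (transcript abundances from RSEM), which are scaled for gene length and library total, so levels can be set side by side between genes, but the number of reads behind a value is unknown. The table lists 20261 to 21344 genes above 0 TPM per library, and genes of the mitochondrial genome took 17.5% to 26.5% of the TPM in WT and 10.3% to 22.4% in RhoB-/- libraries. The targeted gene Rhob had 170.5 to 388.7 TPM in WT and 0.09 to 0.57 TPM in RhoB-/- replicates 1 to 4. The library labelled RhoB-/- replicate 5 had 110.9 TPM of Rhob, against its label, and remained in its labelled group. The calls lost without it are given for Actb and counted with the lists.

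Of the 10 genes, 8 passed the filter of a mean of at least 1 TPM, and 1 of these, Actb, differed between the genotypes at an adjusted p below 0.05 (limma on log2(TPM + 1) with Benjamini-Hochberg adjustment over 12870 tested genes). Actb was higher in RhoB-/- IECs, and none of the 8 was called lower. Over all tested genes, 995 (7.73%) were called higher and 1734 (13.5%) lower, so 1 called gene of 8 is about the background share. For none of the 8 did the WT and RhoB-/- values separate without overlap, whereas 768 tested genes (5.97%) separated upward and 1100 (8.55%) downward. The median log2 fold change of RhoB-/- over WT was 0.06 for the 8 genes and -0.13 for all tested genes. Acta2 and Myl9 were below the filter and were tested one by one.

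**Figure D1:**
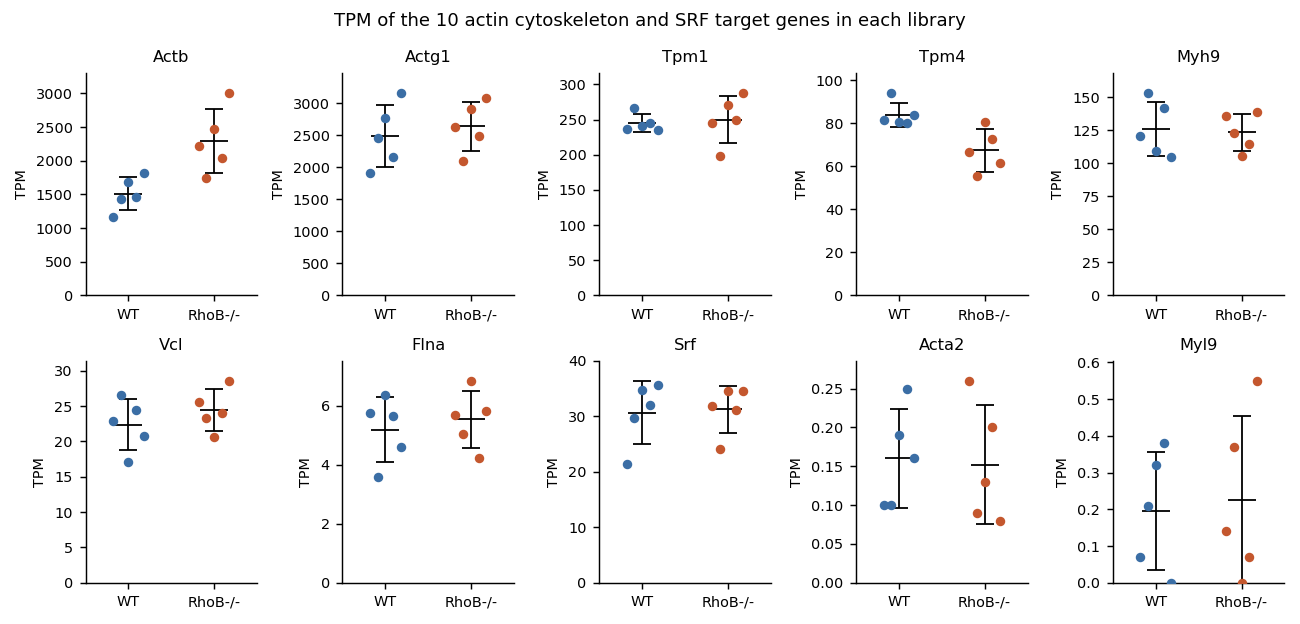
TPM of each of the 10 genes (vertical axes, each from 0 and with its own scale) in every library, with WT in blue and RhoB-/- in orange, and bars at the mean and SD of 5 libraries. Only Actb passed the test, and its RhoB-/- libraries lie between 1739 and 2999 TPM against 1171 to 1819 TPM in WT.

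Actb (ENSMUSG00000029580; chromosome 5, 142903115 to 142906754, minus strand, GENCODE M21 on GRCm38) encodes beta-actin, the cytoplasmic actin that is often used as a reference gene. Its TPM was 1171, 1431, 1683, 1458 and 1819 in WT replicates 1 to 5. The RhoB-/- libraries, in the same order, had 2218, 1739, 2466, 2034 and 2999 TPM. The groups overlapped through RhoB-/- replicate 2, which lay below WT replicate 5, and each of the 5 RhoB-/- values exceeded the WT median. The means were 1513 ± 249.8 TPM for WT and 2291 ± 476 TPM for RhoB-/- (SD, n = 5 each), a ratio of means of 1.51. The log2 fold change was 0.59 (95% interval 0.22 to 0.96, limma adjusted p = 0.0283). Actb kept this direction in each of 18 alternative fits, but the call was lost when WT replicate 1, 2 or 4 or RhoB-/- replicate 1 or 5 was left out, with limma adjusted p values up to 0.0729. With RhoB-/- replicate 5 left out, the limma adjusted p was 0.0675.

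Actg1 (ENSMUSG00000062825; chromosome 11, 120345690 to 120348542, minus strand) encodes gamma-actin, the other cytoplasmic actin of epithelium. Its TPM was 1918, 2460, 2767, 2167 and 3153 in WT replicates 1 to 5. In RhoB-/- replicates 1 to 5 it was 2630.1, 2091, 2909.6, 2488 and 3079.8. The highest single value was in WT and the groups overlapped over most of their range. The means were 2493 ± 487 TPM in WT and 2640 ± 384 TPM in RhoB-/- (SD, n = 5 each). The log2 fold change of 0.09 had a 95% interval of -0.26 to 0.44 (limma adjusted p = 0.709), which ends below the point estimate of Actb but overlaps its interval.

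The balance between the cytoplasmic actins was also compared within libraries, where any scaling of a library cancels. The ratio of Actb to Actg1 was 0.611, 0.582, 0.608, 0.673 and 0.577 in WT replicates 1 to 5. In RhoB-/- replicates 1 to 5 the ratio was 0.843, 0.832, 0.848, 0.818 and 0.974. Every RhoB-/- library had more Actb per Actg1 than every WT library, with a log2 difference of 0.50 (exact permutation p = 0.00794, the smallest that 252 labelings can give, two-sided, and 0.00992 after Benjamini-Hochberg adjustment over 5 ratios). Of all 12870 tested genes, 4.69% had a ratio to Actg1 that separated the groups upward in this way. The 5 ratios were chosen after the values of the single genes were seen. Reads can be shared between the actins and their relatives. In the longest coding transcript of Actb, 266 of 1871 windows of 50 bases (14.2%) occur in a transcript of another gene, and 1079 of 1903 windows (56.7%) in that of Actg1, but only 30 windows of each are shared between Actb and Actg1. Among the genes that share such windows, 20 with Gm or -ps names were in the table at no more than 1.29 TPM in any library. Acta1, which shares windows with both, was higher, at means of 46.7 TPM in WT and 32.9 TPM in RhoB-/-. Lrrc58, also among them, reached 5.68 TPM. How the quantification divided such reads was not tested.

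**Figure D2:**
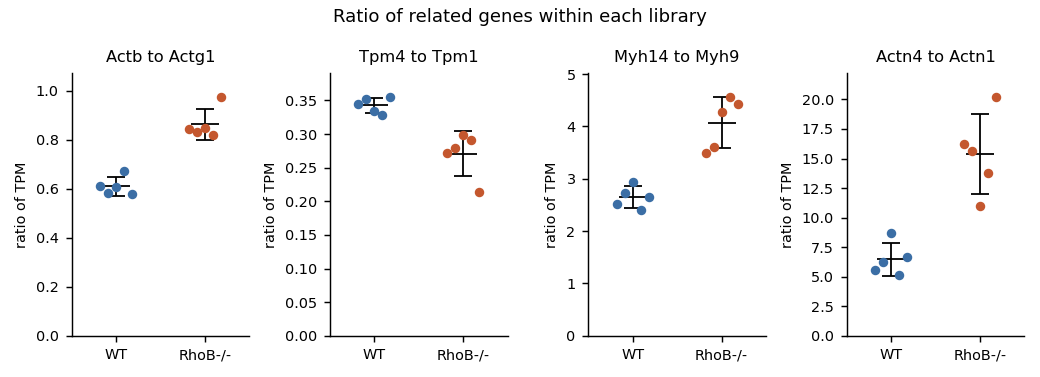
Ratio of the TPM of 2 related genes within each library (vertical axes, each from 0), with WT in blue and RhoB-/- in orange, and bars at the mean and SD of 5 libraries. The genotypes separate for Actb to Actg1, Tpm4 to Tpm1, Myh14 to Myh9 and Actn4 to Actn1.

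Tropomyosins are coiled-coil proteins that lie along actin filaments and set which other proteins can bind. Tpm1 (ENSMUSG00000032366; chromosome 9, 67022590 to 67049406, minus strand) had 236.7, 266.7, 241.4, 245.1 and 235.8 TPM in WT replicates 1 to 5. It had 245.1, 197.7, 270.7, 249.8 and 287.3 TPM in RhoB-/- replicates 1 to 5, with values on both sides of the narrow WT range. The means were 245.1 ± 12.6 TPM and 250.1 ± 33.8 TPM (SD, n = 5 each), with a log2 fold change of 0.02 (95% interval -0.23 to 0.26, limma adjusted p = 0.919). Tpm1 showed no difference larger than the spread between libraries.

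Tpm4 (ENSMUSG00000031799; chromosome 8, 72134975 to 72153142, plus strand) encodes a shorter tropomyosin of non-muscle cells. Its TPM was 81.4, 93.9, 80.5, 80.4 and 83.6 in WT replicates 1 to 5. RhoB-/- replicates 1 to 5 had 66.8, 55.4, 80.7, 72.7 and 61.4 TPM. Each of the 5 RhoB-/- values was under the WT median, and the groups overlapped only because RhoB-/- replicate 3 exceeded WT replicates 3 and 4 by less than 1 TPM. The means were 84.0 ± 5.70 TPM in WT and 67.4 ± 9.81 TPM in RhoB-/- (SD, n = 5 each), a ratio of means of 0.803. The log2 fold change was -0.32 (95% interval -0.57 to -0.08), and the limma adjusted p of 0.0604 missed the threshold. It passed when RhoB-/- replicate 3 was left out (log2 fold change -0.39, limma adjusted p = 0.0141).

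The ratio of Tpm4 to Tpm1 separated the genotypes. It was 0.344, 0.352, 0.334, 0.328 and 0.355 in WT replicates 1 to 5 and 0.272, 0.280, 0.298, 0.291 and 0.214 in RhoB-/- replicates 1 to 5. The log2 difference was -0.35 (exact permutation p = 0.00794, adjusted over the 5 ratios 0.00992), and 11.9% of all tested genes had a ratio to Tpm1 that separated the groups downward. No window of 50 bases was shared between the longest coding transcripts of Tpm1 and Tpm4. The means are over all transcripts of each gene, and splicing forms of Tpm1 were not analysed here.

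Myh9 (ENSMUSG00000022443; chromosome 15, 77760587 to 77842175, minus strand) encodes the heavy chain of non-muscle myosin IIA, which pulls on actin filaments. Its TPM was 121.2, 153.0, 109.5, 141.9 and 105.2 in WT replicates 1 to 5. It was 136.2, 122.8, 105.5, 114.3 and 138.6 in RhoB-/- replicates 1 to 5, inside the WT range in every library. The means were 126.2 ± 20.7 TPM and 123.5 ± 14.1 TPM (SD, n = 5 each), and the log2 fold change was -0.02 (95% interval -0.31 to 0.26, limma adjusted p = 0.914).

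Myh14, the heavy chain of non-muscle myosin IIC, was the more abundant heavy chain in both genotypes. Its TPM spanned 279.9 to 418.2 for WT and 442.1 to 612.9 for RhoB-/-, without overlap, with means of 333.0 ± 52.6 and 501.1 ± 69.7 (SD, n = 5 each). Its log2 fold change was 0.59 (limma adjusted p = 0.0106). The ratio of Myh14 to Myh9 was 2.40 to 2.94 among WT and 3.50 to 4.56 among RhoB-/- libraries, with a log2 difference of 0.62 (exact permutation p = 0.00794, adjusted over the 5 ratios 0.00992). This pair was chosen after the values were seen. Myh14 alone already separated the groups, so the ratio gives no further support. Of all tested genes, 5.03% had a ratio to Myh9 that separated upward. Myh10, the third heavy chain of this kind, was below the filter.

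Vcl (ENSMUSG00000021823; chromosome 14, 20929398 to 21033676, plus strand) encodes vinculin, which links actin to cadherin junctions and integrin adhesions. It had 22.9, 26.5, 17.1, 24.4 and 20.8 TPM in WT replicates 1 to 5 and 25.6, 23.3, 20.7, 24.0 and 28.6 TPM in RhoB-/- replicates 1 to 5. The groups overlapped over most of their range, and the log2 fold change was 0.13 (95% interval -0.15 to 0.41, limma adjusted p = 0.486).

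Flna (ENSMUSG00000031328; chromosome X, 74223461 to 74249820, minus strand) encodes filamin A, which crosslinks filaments into networks. It was low in these cells, with 5.76, 3.58, 6.35, 5.64 and 4.60 TPM in WT replicates 1 to 5 and 5.68, 5.05, 6.84, 4.24 and 5.83 TPM in RhoB-/- replicates 1 to 5. The log2 fold change was 0.08 (95% interval -0.25 to 0.42, limma adjusted p = 0.718). The means were 5.19 ± 1.097 TPM for WT and 5.53 ± 0.965 TPM for RhoB-/- (SD, n = 5 each), and the groups overlapped.

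Srf (ENSMUSG00000015605; chromosome 17, 46548329 to 46556175, minus strand), whose promoter window held a pair of CArG boxes, had 21.3, 29.7, 34.7, 31.9 and 35.7 TPM in WT replicates 1 to 5. It had 31.8, 24.0, 34.5, 31.2 and 34.6 TPM in RhoB-/- replicates 1 to 5. Each group held 1 low library, WT replicate 1 and RhoB-/- replicate 2, and the others lay within the same range. The means were 30.7 ± 5.72 TPM and 31.2 ± 4.31 TPM (SD, n = 5 each), with a log2 fold change of 0.03 (95% interval -0.29 to 0.36, limma adjusted p = 0.888).

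Acta2 (ENSMUSG00000035783; chromosome 19, 34241090 to 34255590, minus strand), the smooth muscle alpha-actin, was close to the lower end of the table in every library. Its TPM was 0.10, 0.10, 0.19, 0.25 and 0.16 in WT replicates 1 to 5 and 0.26, 0.09, 0.13, 0.20 and 0.08 in RhoB-/- replicates 1 to 5 (exact permutation p = 0.825, two-sided). Myl9 (ENSMUSG00000067818; chromosome 2, 156775420 to 156781658, plus strand), a myosin regulatory light chain that is abundant in smooth muscle, had 0.07, 0.21, 0.32 and 0.38 TPM in WT replicates 1 to 4 and was listed at 0 in WT replicate 5. In RhoB-/- libraries it had 0.14, 0.37, 0.07 and 0.55 TPM in replicates 1, 2, 4 and 5 and was listed at 0 in replicate 3 (exact permutation p = 0.889, two-sided). Neither gene allowed a fold change to be read. Some smooth muscle markers were likewise near 0, with Myh11 at no more than 0.05 TPM, Lmod1 and Myocd at no more than 0.02 TPM and Des at no more than 0.16 TPM in any library. Others of that list, Actg2, Tagln and Smtn, passed the filter, at means of 1.90, 1.27 and 8.17 TPM in WT. Unlike Myl9, light chains of the non-muscle type, Myl6, Myl12a and Myl12b, passed the filter, with log2 fold changes of 0.34, 0.27 and 0.28 that missed the threshold.

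In WT libraries, the order of mean levels was Actg1, Actb, Tpm1, Myh9, Tpm4, Srf, Vcl, Flna, Myl9 and Acta2. Actg1 ranked 27 and Actb 58 among the 12870 tested genes, Tpm1 425, Myh9 829, Tpm4 1295, Srf 3301, Vcl 4289 and Flna 9270. The ranges of neighbours in this order were apart in WT except for Srf and Vcl and for Myl9 and Acta2. The same neighbours overlapped in RhoB-/- libraries, and there Actg1 and Actb overlapped too.

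**Figure D3:**
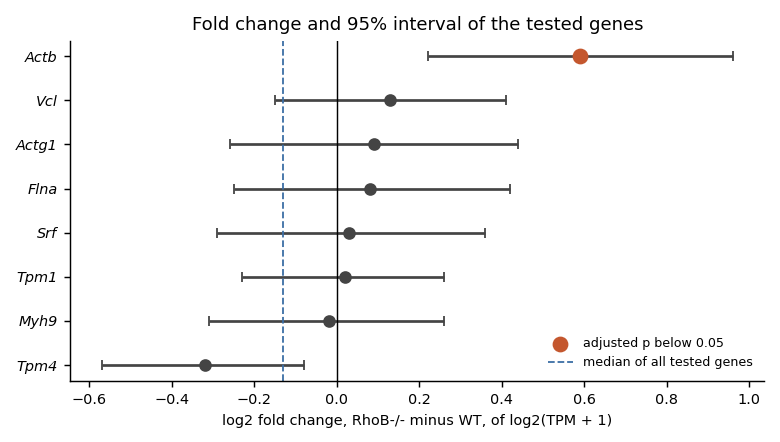
Log2 fold change of RhoB-/- over WT on the log2(TPM + 1) scale for the 8 genes above the filter (points, with 95% intervals from limma). The dashed line marks the median of all tested genes, -0.13, and the interval of Actb, 0.22 to 0.96, lies above 0.

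The genes around these 10 were followed in 8 lists, whose genes can stand in more than 1 list. The list of SRF targets that respond through MRTF held 40 other genes, of which 30 were tested, 3 were called higher and 4 lower, with a median log2 fold change of 0.09. Those called higher were Tpm2, a tropomyosin (13.8 ± 3.88 TPM in WT, 24.1 ± 8.26 TPM in RhoB-/-, limma adjusted p = 0.0377), Fhl2, a LIM domain protein (11.8 to 17.0 TPM, adjusted p = 0.0221), and Dstn, destrin, which severs filaments (721 ± 93.6 to 976 ± 114 TPM, adjusted p = 0.0295). Those called lower were Ccn1, a secreted matrix protein (99.5 ± 30.0 to 48.6 ± 11.2 TPM, log2 fold change -1.0, adjusted p = 0.00839), Csrp1, a LIM domain protein (23.2 ± 1.71 to 14.7 ± 3.92 TPM, adjusted p = 0.0123), Actn1, alpha-actinin 1 (41.4 ± 5.86 to 28.5 ± 4.34 TPM, adjusted p = 0.0158), and Smtn, smoothelin (8.17 to 5.20 TPM, adjusted p = 0.0284). Ccn1, Dstn and Csrp1 separated without overlap. These counts are near those that the shares over all tested genes, 7.73% higher and 13.5% lower, would give for 30 genes. The number called higher was 0 without WT replicate 2 or 4 or RhoB-/- replicate 1 or 4, and 10 after each library was centred on its median deviation, where 15.6% of all tested genes were called higher. A positive fold change was found for 18 of the 30, while the median over all tested genes was -0.13 and their share of positive values was not determined. A CArG box lay in the windows of 7 of the 32 listed genes that had a window (21.9%). The list was chosen as SRF targets, so a high share follows from the choice. Among these 7 only Fhl2 was called, against 7.73% called higher over all tested genes. The call of Fhl2 held in 6 of the 10 fits that left out 1 library.
The windows of Fhl2 on the minus strand of chromosome 1 are shown beside those of Srf and Actg1, which did not pass the test. Whether a box goes with a call was not tested.
Fhl2, chr1:43196838-43196867, 96 bases before the start: catttagagaCCAAAAAAGGcttgcaggag
Fhl2, chr1:43163973-43164002, 31 bases before a second start: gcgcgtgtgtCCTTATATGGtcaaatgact

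SRF also acts with ternary complex factors on immediate early genes. Of 11 such genes, 10 were tested and only Nr4a1, a nuclear receptor, was called, from 76.0 ± 23.0 TPM in WT to 41.8 ± 10.1 TPM in RhoB-/- (SD, n = 5 each, limma adjusted p = 0.0324). Fos, an AP-1 subunit, had 1006 ± 421 TPM in WT and 1018 ± 160 TPM in RhoB-/- (limma adjusted p = 0.778). None of the 4 tested cofactors of SRF was called, with log2 fold changes of -0.18 for Mrtfa, -0.25 for Mrtfb, -0.36 for Elk1 and -0.07 for Elk4. Over all tested genes the shares called were 7.73% higher and 13.5% lower, so neither count stands apart from the background.

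Upstream of the filaments, 1 of 21 genes of the ROCK and formin pathways was called, against 7.73% higher and 13.5% lower over all tested genes. Rock2, a kinase that raises myosin activity, had 20.9 to 24.4 TPM in WT and 31.4 to 55.8 TPM in RhoB-/- libraries without overlap (log2 fold change 0.77, limma adjusted p = 0.00519). Rock1, its paralog, had a log2 fold change of -0.03 (limma adjusted p = 0.899), and Mylk, the myosin light chain kinase, one of 0.38 (limma adjusted p = 0.0524). After each library was centred on its median deviation, 9 genes of this list were called higher, against 15.6% of all tested genes. After quantile normalization, 6 were called higher and 1 lower, against 12.3% and 15.3% of all tested genes. Rhoc, a close relative of Rhob, rose from 172.3 ± 38.5 to 341.8 ± 61.7 TPM (SD, n = 5 each, log2 fold change 1.0, limma adjusted p = 0.00205). Rhoa, the other close relative, had 167.9 ± 10.9 TPM in WT and 181.1 ± 19.0 TPM in RhoB-/-, which overlapped (log2 fold change 0.10, limma adjusted p = 0.482).

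Genes of actin assembly lay mostly on the positive side, with 25 of 27 tested fold changes above 0. Their median was 0.28, against -0.13 over all tested genes and -0.1 over the 9281 genes with a mean of at least 5 TPM. The share of positive fold changes over all tested genes, or over genes of like level, was not determined. The 3 called, against a share of 7.73% over all tested genes, were Cap1, which recycles actin monomers (138.5 ± 12.8 to 189.5 ± 29.7 TPM, limma adjusted p = 0.0263), Coro1b, a coronin of branched networks (218.0 ± 25.4 to 292.8 ± 35.7 TPM, adjusted p = 0.0282), and Arpc5, an Arp2/3 subunit (159.1 ± 11.99 to 205.9 ± 21.95 TPM, adjusted p = 0.0284). Their log2 fold changes of 0.44, 0.42 and 0.37 were small, and the number called rested on scaling and on single libraries. It was 20 after the same centring, 9 after quantile normalization and 13 without RhoB-/- replicate 2. Of all tested genes, 15.6%, 12.3% and 9.0% were called higher in these settings. The number for the list was 0 without WT replicate 4 or 5 or RhoB-/- replicate 5, with a replicate block, or at the thresholds of the study. No gene of the list was called lower under any of these. Over all tested genes, 36.5% of calls were higher, against 55.0% after that centring and 22.8% when mitochondrial genes were left out. The colon epithelium markers lay on the same side, with 12 of 14 fold changes above 0 and a median of 0.29, and their part in the values of the actin assembly genes was not tested.

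Crosslinkers and anchors gave 3 calls higher and 3 lower among 15 tested, against 7.73% and 13.5% over all tested genes. The number called lower was 1 without WT replicate 2 or 4 or RhoB-/- replicate 5. Actn4, alpha-actinin 4, which bundles filaments in epithelium, rose from 261.8 ± 21.98 to 429.6 ± 76.1 TPM without overlap (SD, n = 5 each, log2 fold change 0.70, limma adjusted p = 0.00328), whereas its paralog Actn1 fell, as given with the SRF targets. The ratio of Actn4 to Actn1 was 5.16 to 8.67 in WT and 11.03 to 20.2 in RhoB-/- libraries (log2 difference 1.25, exact permutation p = 0.00794, adjusted over the 5 ratios 0.00992), but 29.1% of all tested genes separated upward against Actn1, itself a called gene. This pair too was chosen after the values were seen, and Actn4 alone already separated the groups. Msn, moesin, a membrane linker of leukocytes and endothelium as well, rose from 0.766 ± 0.188 to 2.18 ± 0.871 TPM (limma adjusted p = 0.0149). Msn averaged under 1 TPM in WT and passed the filter only through its RhoB-/- values. Its call, which is counted here, is therefore not independent of the filter. Its relative Rdx, radixin, fell from 4.24 ± 2.001 to 1.73 ± 0.467 TPM (limma adjusted p = 0.0259). The other calls were Tpm2, higher, and Anln, anillin of the cytokinetic ring, lower (9.08 to 5.56 TPM, limma adjusted p = 0.0386).

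In the list of focal adhesions, 2 of 18 tested genes were called higher and 2 lower, near or below the shares over all tested genes, with a median log2 fold change of 0.10. None was called higher without WT replicate 5 or RhoB-/- replicate 1 or 5. Itga6, an integrin subunit of the epithelial base, rose from 73.5 ± 10.2 to 97.1 ± 7.93 TPM without overlap (SD, n = 5 each, limma adjusted p = 0.0295), and Lasp1, an actin-binding LIM protein, from 145.6 to 188.2 TPM (limma adjusted p = 0.0448). Lims1 and Parva, partners in the complex that ties integrins to actin, fell from 19.3 ± 3.41 to 11.9 ± 0.855 TPM without overlap (limma adjusted p = 0.00413) and from 27.7 ± 4.73 to 20.2 ± 1.87 TPM (limma adjusted p = 0.0284). Over all lists, with the 10 chosen genes left out, 12 of 121 tested genes were called higher and 9 lower, against the background shares of 7.73% and 13.5%. Without RhoB-/- replicate 5 these counts were 5 and 4. In every fit that left out 1 library, Actn1, Actn4, Ccn1, Csrp1, Lims1, Msn, Myh14 and Rock2 were called, where Msn passed the filter only through its RhoB-/- values. Tpm2 was called in 2 of the 10 such fits, Anln, Nr4a1 and Lasp1 in 3, and Cap1, Dstn and Smtn in 4. Arpc5, Coro1b, Parva and Rdx were called in 5, Fhl2 in 6 and Itga6 in 7.

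**Figure D4:**
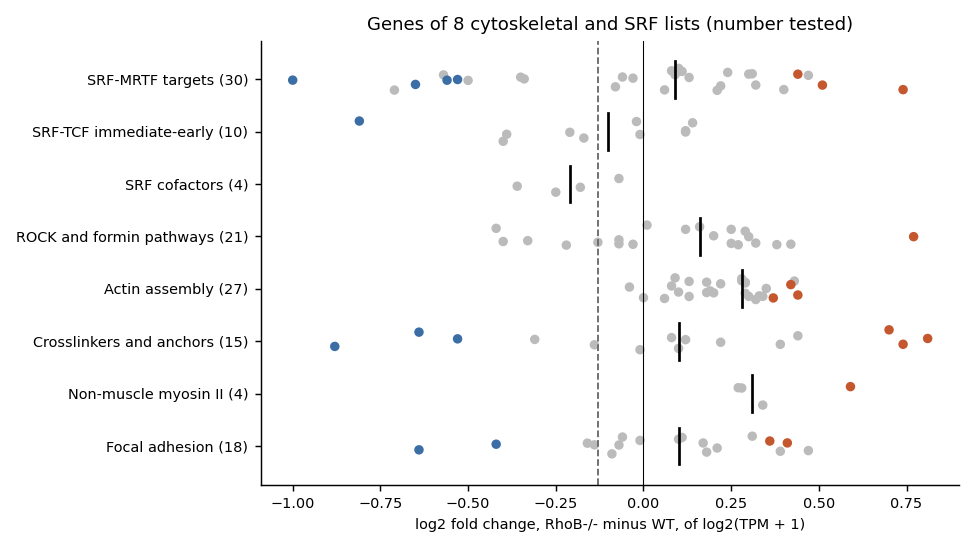
Log2 fold change of RhoB-/- over WT for each tested gene of the lists (horizontal axis), in orange where called higher, blue where called lower and grey otherwise, with a black tick at each list's median. The dashed line is the median of all tested genes, -0.13, and the 27 actin assembly genes lie between -0.04 and 0.44.

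Markers of other cell types were summed because the release of epithelium from the colon could carry other cells along. Bulk RNA, these sums included, cannot tell fewer cells of a type from less RNA per cell. The sum over 10 leukocyte markers was 6.19 to 12.3 TPM in WT and 20.5 to 34.2 TPM in RhoB-/- libraries, without overlap (log2 difference 1.55, exact permutation p = 0.00794, adjusted over 5 lists 0.0198). Ptprc, which marks all leukocytes, was at 1.24 to 2.65 TPM in WT and 3.72 to 9.64 TPM in RhoB-/-. The sum over 11 fibroblast markers was 11.3 to 14.1 TPM in WT and 15.2 to 63.0 TPM in RhoB-/-, also without overlap (log2 difference 0.99, exact permutation p = 0.00794, adjusted 0.0198), with the highest value in RhoB-/- replicate 5, without which the log2 difference was 0.66. Most of the sum was Vim (5.85 TPM in WT and 10.95 TPM in RhoB-/- on average) and Dcn (2.02 and 9.74 TPM). Pdgfrb had the opposite order, at 2.17 and 1.36 TPM with all 5 RhoB-/- values under the WT median, while Pdgfra did not exceed 0.06 TPM and Lum 0.19 TPM in any library. These cells express Actb and Msn, and the part of leukocytes and fibroblasts in those results was not tested.

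Smooth muscle markers summed to 8.48 to 16.2 TPM in WT and 7.13 to 9.14 TPM in RhoB-/- (log2 difference -0.44, exact permutation p = 0.0635, adjusted 0.0794), and most of this was Smtn. Actg2 and Tagln, the other smooth muscle markers that also belong to the SRF targets and passed the filter, had 1.90 ± 1.5 and 1.27 TPM in WT and 1.19 ± 0.885 and 1.44 TPM in RhoB-/-, with limma adjusted p values of 0.552 and 0.633. Endothelial markers summed to 0.98 to 1.34 TPM in WT and 0.85 to 1.68 TPM in RhoB-/- (exact permutation p = 0.452). Colon epithelium markers, which are the defining genes of the labelled cells, were abundant in every library and summed to 27019.7 to 31361 TPM in WT and 27655 to 45340.3 TPM in RhoB-/- (log2 difference 0.30, exact permutation p = 0.0556, adjusted 0.0794).

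**Figure D5:**
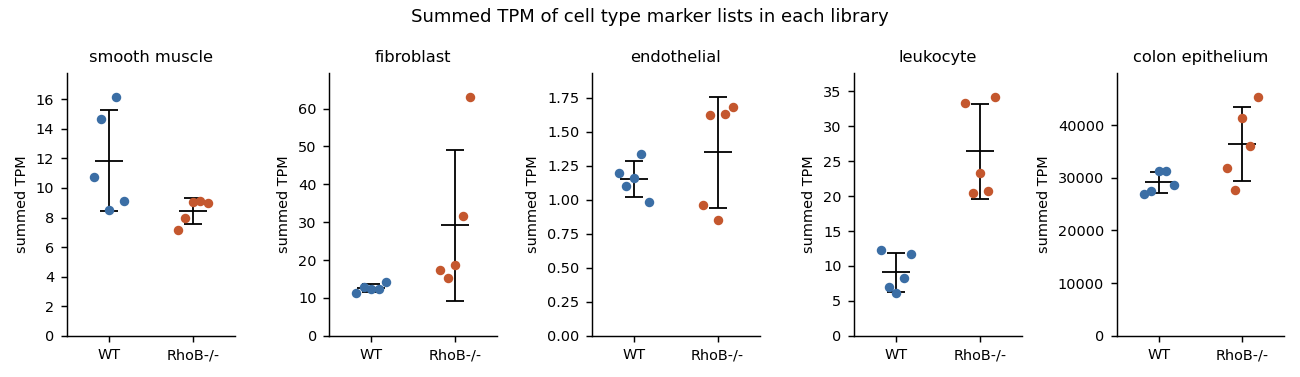
Summed TPM of 5 cell type marker lists (vertical axes, each from 0) in every library, with WT in blue and RhoB-/- in orange, and bars at the mean and SD of 5 libraries. Leukocyte and fibroblast sums separate the genotypes, with 20.5 to 34.2 and 15.2 to 63.0 TPM in RhoB-/- libraries.

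Across the 10 libraries, the profile of Actb, which had the widest range of the 8 genes at 1.36 on the log2(TPM + 1) scale, was closest to those of Mat2a, Ugcg and Ifngr1, with a mean absolute difference of 0.063, 0.064 and 0.073 after each gene was centred on its mean. The median of this distance over all tested genes was 0.406. The profile of Srf was closest to Rdh10 (0.065), Rb1cc1 (0.077) and Actg1 (0.079), with a median of 0.260 over all tested genes. Srf and Actg1 thus lay near each other in level pattern while neither differed by genotype beyond the spread between libraries.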

How the data were processed

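IECs had been released from colon with EDTA and DTT. The authors made TruSeq libraries from total RNA, sequenced paired ends, trimmed reads with SeqPrep and Sickle and deposited TPM values from RSEM. HISAT2, StringTie, edgeR and GRCm38.p6 are listed in the submitters' processing notes, while tool versions and the annotation release are not given in the sources used here. TPM keeps no depth, so no counting error can be given, and a few abundant genes lower all others in a library.

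WT and RhoB-/- were compared with limma 3.58.1 in R 4.3.3 (moderated statistics with a variance trend over expression, two-sided, values as log2(TPM + 1)) in the 12870 genes averaging at least 1 TPM, called at a Benjamini-Hochberg adjusted p below 0.05. Fold changes on this scale understate changes of low genes. Ratios, marker sums and genes below the filter were compared by exact permutation over 252 labelings (Python 3.11.15, SciPy 1.17.1), whose smallest p is 0.00794. Positions and transcripts are from GENCODE M21 and promoter windows from RefSeq; protein sequences were not analysed here.

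The 10 genes and the lists were chosen with earlier results of these data known. Named genes were these 10, Rhob, up to 4 called genes per direction and list, smooth muscle markers above the filter, and the 3 nearest profiles of Srf and of the most variable of the 10 genes. Other genes, Rhoc and Myh10 among them, and the 5 ratios were picked after values were seen, and 1 of these ratios is not reported here. The fit was checked on simulated data. Alternatives were another pseudocount, other filters, centring, quantile normalization, no mitochondrial genes, no trend, a replicate block, the thresholds of the study, and each library left out.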

Additional observations from a re-analysis of the deposited data

Results flagged for a closer look

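The highest or lowest of 5 libraries stood apart from the other 4 by Dixon's criterion in 3 of the 42 groups examined, where chance alone gives about 1 in 20. Tpm4 was at 93.88 TPM in WT replicate 2 and at 80.37 to 83.64 TPM in the other WT libraries. Rhob was at 110.87 TPM in RhoB-/- replicate 5 and at 0.09 to 0.57 TPM in the other RhoB-/- libraries. The ratio of Actb to Actg1 was 0.974 in RhoB-/- replicate 5 and 0.818 to 0.848 in the other RhoB-/- libraries, all of which lay above the WT range.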

How the results depend on the processing

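Actb stayed higher and Tpm4 lower under every alternative, with log2 fold changes of 0.48 to 0.71 and -0.40 to -0.21. Of the 10 genes, 0 were called higher with no filter on low TPM, and 1, Tpm4, was called lower after quantile normalization and without mitochondrial genes. Leaving out 1 library gave 0 to 1 called higher and 0 to 1 lower. Directions that were not called turned for Actg1 (-0.04) and Tpm1 (-0.11) after quantile normalization, for Tpm1 (-0.06) and Srf (-0.04) without mitochondrial genes and for Myh9 (0.09) after centring, and with 1 library left out for Flna (-0.02 to 0.16), Tpm1 (-0.03 to 0.10), Myh9 (-0.08 to 0.05) and Srf (-0.09 to 0.12). Over all genes and the 121 listed genes, centring gave 2010 and 51 higher, quantile normalization 1587 and 24 higher, and leaving out mitochondrial genes 3729 and 14 lower. The fold threshold of 1.5 at an unadjusted p gave 820 and 5 higher and 1072 and 7 lower. A filter of 5 TPM gave 1104 of 9281 genes and 8 of 107 listed genes lower, and no filter 1197 of 28114 and 4 of 140. Each library left out gave 716 to 1158 genes higher and 860 to 2929 lower. The highest number lower was without RhoB-/- replicate 3 and the lowest without WT replicate 4. Of the listed genes, 5 to 28 were higher, the highest without RhoB-/- replicate 2, and 4 to 11 lower. The log2 difference in the colon epithelium sum ran from 0.22 to 0.40. The causes were not tested. A replicate block gave 1059 genes lower, and 7 listed genes higher and 5 lower, with Actb at 0.59 (limma adjusted p = 0.022), but same-numbered libraries correlated by only -0.087 to 0.072 and replicate 3 alone correlated best with its own number, so the numbers were not taken as pairs. TPM without read counts limits every value listed near 0.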

Other observations

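Of the 14 colon epithelium markers, limma called 5 higher in RhoB-/- IECs and none lower, against 7.73% and 13.5% over all tested genes. These 5 were Krt20, Vil1, Car4, Aqp8 and Cdx2, of which Cdx2 was called in only 3 of the 10 fits without 1 library. The others did not pass, among them Slc26a3, a chloride exchanger (199.8 TPM in WT and 245.2 TPM in RhoB-/- on average), and Car1, a carbonic anhydrase (10411 to 15530.3 TPM in WT and 12131 to 23239 TPM in RhoB-/-), both with overlap. Krt20, a keratin of surface cells, had 588.1 to 902.4 TPM in WT and 1069.5 to 2414 TPM in RhoB-/- libraries without overlap (log2 fold change 1.17). Vil1, villin, which bundles the actin of the brush border, had 298.7 to 356.7 TPM in WT and 407.6 to 678.4 TPM in RhoB-/- libraries without overlap (log2 fold change 0.65). Acta1, the skeletal muscle actin, was listed at a mean of 46.7 TPM in WT and 32.9 TPM in RhoB-/-, well above Acta2. Acta1 is among the genes that share windows of 50 bases with Actb and Actg1, so its value is uncertain.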
